A study of Mus musculus with 18 samples.

Results

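The genes *Slc12a5*, *Slc12a2*, *Clcn2*, *Wnk1*, *Stk39*, *Car2* and *Car7*, which act in chloride and bicarbonate handling, were examined in the spinal dorsal horn (DHSC) on the injected side, in mice that had received formalin in a hindpaw. They were picked by name, as the rows of the count table whose Ensembl identifier carries one of these symbols, and are 7 of its 55573 genes. RNA-Seq was performed on 18 DHSC samples of adult C57BL/6J mice, all taken 2H after injection of a 2% formalin solution. These were 6 F1/proestrus females, 6 F2/metestrus females and 6 males. F1 and F2 females had a short and a long quiet interphase between the bouts of pain behavior, and the estrus stage was read from vaginal smears after the test. In the female groups the behavior and the stage of the cycle coincide, so that they cannot be told apart. All groups had formalin, no uninjected mice were analysed here, and no value below is therefore a response to formalin.

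In mature neurons the potassium-chloride cotransporter KCC2, encoded by *Slc12a5*, moves chloride out of the cell, while the sodium-potassium-chloride cotransporter NKCC1, encoded by *Slc12a2*, brings it in. The gradient that they set decides how strongly GABA and glycine, the inhibitory transmitters of the dorsal horn, hold neurons back, and loss of KCC2 in this tissue is known from models of neuropathic pain. The kinase WNK1 activates the kinase SPAK, encoded by *Stk39*, which phosphorylates these cotransporters, switching NKCC1 on and KCC2 off. ClC-2, encoded by *Clcn2*, is a chloride channel that opens at negative voltage, in neurons and glia. Carbonic anhydrases II (*Car2*) and VII (*Car7*) make bicarbonate, the other anion that passes GABA-A receptor channels. *Car2* is also known as a gene of oligodendrocytes, and *Car7* as one of neurons.

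On GRCm38, with GENCODE vM21, *Slc12a5* (ENSMUSG00000017740) lies on the plus strand at chr2:164960802-164999731, with 7447 bp of exon. *Slc12a2* (ENSMUSG00000024597) has 10920 bp of exon. *Clcn2* (ENSMUSG00000022843) lies on the minus strand at chr16:20702964-20717746, with 6022 bp of exon. Of that exon sequence, 85 bp (1.41%) overlap *Fam131a* and 82 bp (1.36%) overlap *Polr2h*, both on the opposite strand. *Wnk1* (ENSMUSG00000045962, minus strand, chr6:119923969-120038672) has the longest exon sequence of the 7, with 22825 bp. *Stk39* (ENSMUSG00000027030) lies on the minus strand at chr2:68210445-68472268, with 4955 bp of exon. *Car2* (ENSMUSG00000027562, plus strand, chr3:14886273-14900770) has 2422 bp of exon and *Car7* (ENSMUSG00000031883, plus strand, chr8:104534689-104550343) has 3637 bp. Exons of the genes other than *Clcn2* overlapped no exon of another gene. RefSeq start sites were found for 5 of the 7 genes, with 8 windows of 250 bases before a start. The windows shown are those of *Slc12a5* and *Wnk1*, whose mean levels were both lower in replicates 4 to 6 of the groups than in replicates 1 to 3. They were read from GRCm38.p6 for the plus strand at chr2:164960596-164960845 (first start of *Slc12a5*) and chr2:164967738-164967987 (second start), and for the minus strand at chr6:120038656-120038905 (*Wnk1*).
Slc12a5 first start: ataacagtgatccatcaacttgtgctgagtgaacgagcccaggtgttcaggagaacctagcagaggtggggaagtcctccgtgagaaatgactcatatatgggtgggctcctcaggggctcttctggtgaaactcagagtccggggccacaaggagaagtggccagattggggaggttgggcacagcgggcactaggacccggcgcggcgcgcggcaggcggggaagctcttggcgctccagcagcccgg
Slc12a5 second start: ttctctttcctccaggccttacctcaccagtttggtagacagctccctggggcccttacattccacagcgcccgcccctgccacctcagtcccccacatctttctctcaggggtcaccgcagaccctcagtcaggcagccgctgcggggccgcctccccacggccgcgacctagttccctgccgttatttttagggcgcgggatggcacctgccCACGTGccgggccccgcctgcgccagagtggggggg
Wnk1: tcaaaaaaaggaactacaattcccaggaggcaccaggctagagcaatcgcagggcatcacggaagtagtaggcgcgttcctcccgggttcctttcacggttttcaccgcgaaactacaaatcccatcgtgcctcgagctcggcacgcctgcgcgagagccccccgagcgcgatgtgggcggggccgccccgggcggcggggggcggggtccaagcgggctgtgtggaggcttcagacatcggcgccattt
Capitals mark CACGTG, the E-box that factors such as USF bind, searched on both strands along with GCGNGGGCG, which EGR factors bind. CACGTG was present once, in the second window of *Slc12a5*, and GCGNGGGCG was in none of the 8 windows. An overlap of the 2 motifs could therefore not arise. Of all 32851 RefSeq windows of this length, 6.02% held CACGTG and 4.70% held GCGNGGGCG. The windows of *Slc12a5* had 61.2% and 67.2% GC and that of *Wnk1* 64.0%, against a median of 52.4% over all windows.

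Between 73590509 and 125724156 reads were counted on genes per sample, and 3 counts, the floor of detection, corresponded to 0.0240 to 0.0407 CPM. Each of the 7 genes had at least 1226 counts in every sample, and all passed the filter on low counts in every comparison. Markers of excitatory and inhibitory dorsal horn neurons were detected in all samples, with summed levels of 355 to 449 CPM and 637 to 887 CPM for 6 genes each. The library F1/proestrus 5 stood apart, with 571 CPM summed over 7 sensory ganglion neuron markers against 7.84 to 36.1 CPM in the other libraries. Summed Schwann cell markers were 1105 to 2494 CPM in males and 774 to 1404 CPM in females. The count table numbers its libraries in 2 separate runs, and the first run holds replicates 1 to 3 of each group and the second replicates 4 to 6, 9 samples each. These are called the replicate sets, and the labels do not say what set the runs apart.

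Per kilobase of exon, *Car2* had the highest level of the 7 genes, at 188 ± 20.8 CPM per kb (SD, n = 18). *Slc12a5* followed with 74.8 ± 8.19 CPM per kb, and *Car2* lay above it in 18 of 18 samples. The kinase *Stk39* (23.1 ± 1.44 CPM per kb) and *Slc12a2* (21.5 ± 3.27 CPM per kb) had levels whose ranges overlapped, *Stk39* being higher in 12 of 18 samples. *Clcn2* came next with 10.5 ± 1.08 CPM per kb, clear of *Slc12a2* and of *Car7* in each sample. *Car7* (4.58 ± 0.409 CPM per kb) and *Wnk1* (3.02 ± 0.292 CPM per kb) were lowest. Their ranges over the samples overlapped, but *Car7* lay above *Wnk1* within each of the 18. This order depends on the length divided by, the union of annotated exons, and differed in CPM. Mean CPM was 557 for *Slc12a5*, 455 for *Car2*, 235 for *Slc12a2* and 115 for *Stk39*. It was 68.9 for *Wnk1*, 63.4 for *Clcn2* and 16.7 for *Car7*.

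KCC2 was thus the more abundant of the cotransporter transcripts, and its ratio to NKCC1 was compared as a description. In bulk tissue this ratio covers all cells that express either gene, and it is not a value for neurons. It also depends on the exon lengths divided by, 7447 bp for *Slc12a5* and 10920 bp for *Slc12a2*. *Slc12a5* per kb divided by *Slc12a2* per kb was 3.57 ± 0.503 in F1/proestrus, 3.31 ± 0.233 in F2/metestrus and 3.67 ± 0.440 in males (SD, n = 6 each). Over all samples the ratio ran from 3.02 to 4.38, and the groups overlapped. It was 3.46 ± 0.470 in replicates 1 to 3 and 3.57 ± 0.369 in replicates 4 to 6 (SD, n = 9 each).

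**Figure D1:**
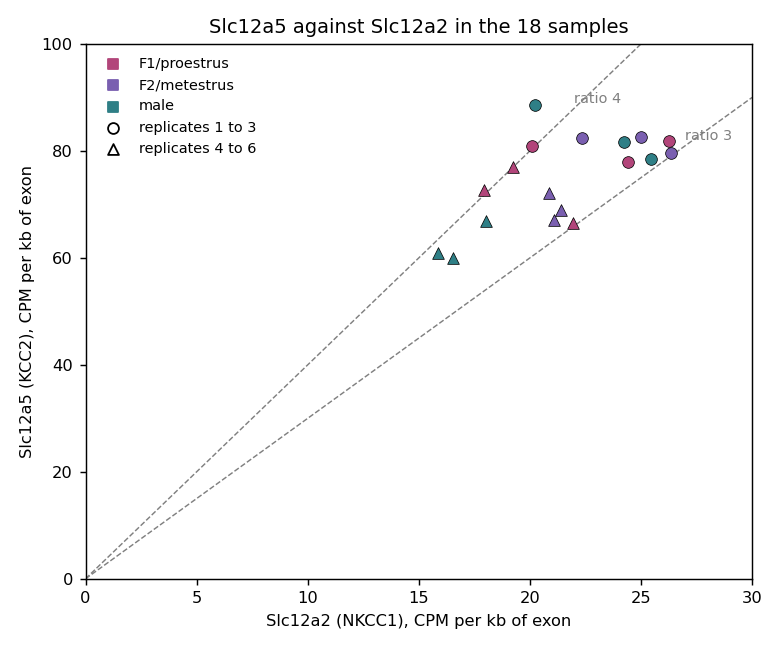
*Slc12a5* (y axis) against *Slc12a2* (x axis), both in CPM per kb of exon. Each point is 1 of the 18 samples, colored by group, with circles for replicates 1 to 3 and triangles for replicates 4 to 6, and dashed lines mark ratios of 3 and 4. All points lie at ratios between 3.02 and 4.38, and the triangles lie below all circles on the *Slc12a5* axis.

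The first comparison asked whether females with a short and a long interphase, in proestrus and metestrus, differ in these transcripts. None of the 7 genes passed the test, and all groups overlapped. The comparison called 0 of 24042 genes (0%) with edgeR's quasi-likelihood test, while 596 had an unadjusted p under 0.05 (2.48%) and DESeq2 called 2. Of all genes tested, 0.108% had groups that did not overlap. The values below are CPM after TMM normalization.

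*Slc12a5*, the chloride extruder, ran from 495 to 609 CPM in F1/proestrus (median 577) and from 500 to 615 CPM in F2/metestrus (median 565). The groups had nearly the same range, with a log2 difference of -0.015 for F2/metestrus minus F1/proestrus (95% confidence interval -0.16 to 0.13, adjusted p = 1). *Slc12a2*, the chloride loader, ran from 196 to 287 CPM in F1/proestrus (median 230) and from 228 to 288 CPM in F2/metestrus (median 239). Its log2 difference was 0.075 (-0.12 to 0.27, adjusted p = 1). *Clcn2* had levels of 56.2 to 67.9 CPM (median 63.6) in F1/proestrus and 55.7 to 66.5 CPM (median 60.6) in F2/metestrus, with a log2 difference of -0.057 (-0.19 to 0.078).

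The kinases of the pathway were as close. *Wnk1* ran from 59.3 to 78.4 CPM in F1/proestrus (median 73.2) and from 67.0 to 75.1 CPM in F2/metestrus (median 70.2), so that the second range lay inside the first, and the log2 difference was -0.010 (-0.15 to 0.13). *Stk39*, which encodes SPAK, ran from 104 to 123 CPM (median 114) and from 116 to 125 CPM (median 120), with a log2 difference of 0.060 (-0.042 to 0.16).

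Of the carbonic anhydrases, *Car2* had the largest difference of the 7 genes. It ran from 409 to 532 CPM in F1/proestrus (median 436) and from 444 to 542 CPM in F2/metestrus (median 478). Means were 450 ± 43.7 and 485 ± 34.0 CPM (SD, n = 6 each), and the log2 difference of 0.11 (-0.033 to 0.25) had an adjusted p of 1 with edgeR. Of 8 oligodendrocyte markers, read here because oligodendrocytes express *Car2*, 0 passed, with log2 differences of 0.063 to 0.17 (median 0.11) and sums of 29118 to 36937 CPM in F1/proestrus and 31071 to 35781 CPM in F2/metestrus. Their part in the *Car2* value was not tested. *Car7* ran from 12.3 to 18.5 CPM in F1/proestrus (median 16.5) and from 16.0 to 18.5 CPM in F2/metestrus (median 17.3), with a log2 difference of 0.066 (-0.12 to 0.25). In linear terms the intervals of the 7 genes lay between a 0.876-fold and a 1.21-fold level in F2/metestrus, so that larger changes were outside them. The median log2 difference of the 7 genes was 0.060, beside -0.00038 over all genes tested. Without F1/proestrus 5, that of *Slc12a5* was -0.050 and that of *Slc12a2* 0.081, and none passed. Within replicates 1 to 3 the log2 difference of *Car2* was 0.12 (adjusted p = 0.954, edgeR) and within replicates 4 to 6 it was 0.096. *Slc12a5* had 0.017 and -0.054, and *Wnk1* -0.033 and 0.012, opposite signs that were not past the test in either set.

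**Figure D2:**
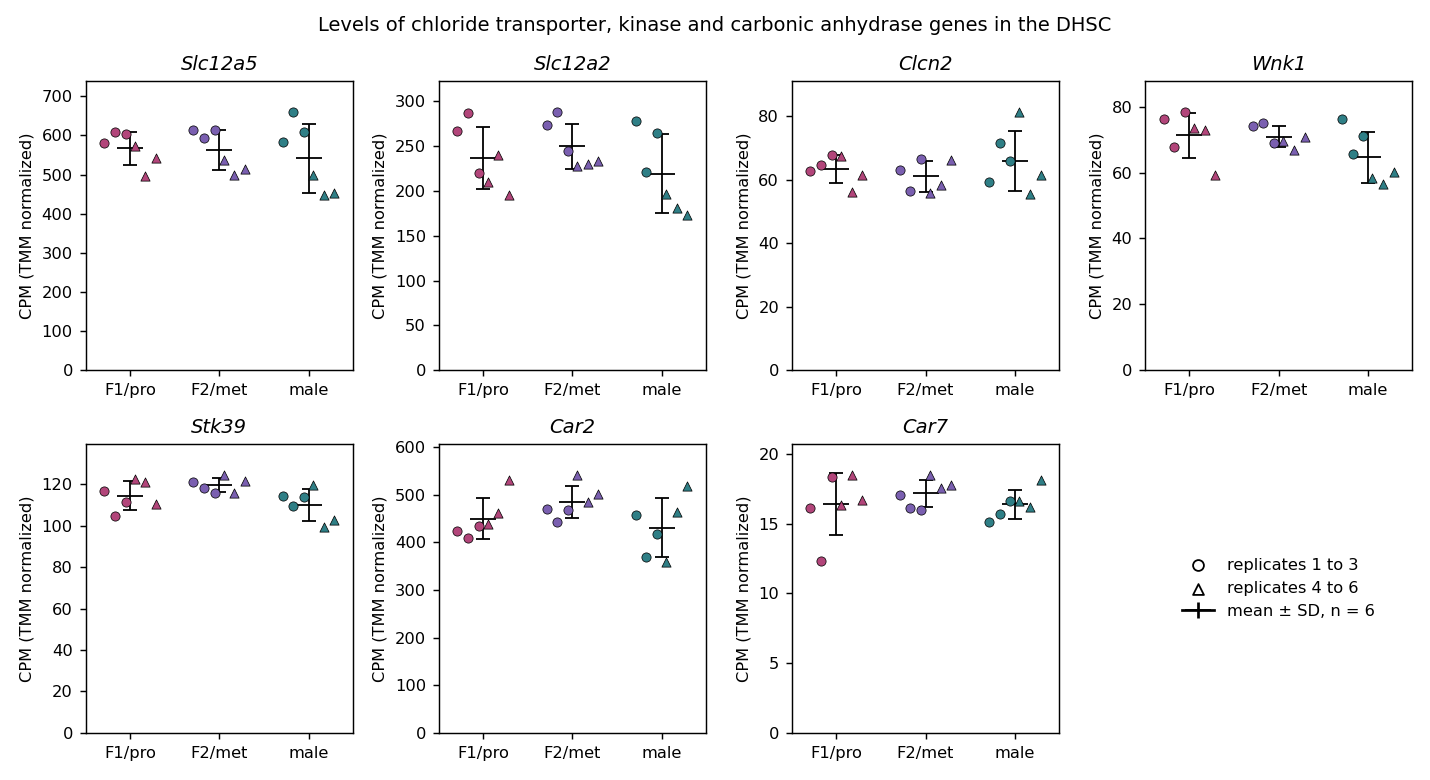
Levels in CPM (y axis, from 0) of the 7 genes in each sample, by group (x axis: F1/proestrus, F2/metestrus, males). Circles are replicates 1 to 3, triangles replicates 4 to 6, and bars give the mean ± SD of 6 samples. The groups overlap for every gene, and for *Slc12a5* the triangles lie below the circles.

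The second comparison asked whether males differ from females, taken as the 12 females of both stages. Again 0 of the 7 genes passed, where the comparison called 49 of 24862 genes (0.197%), 37 of them higher (0.149%) and 12 lower (0.0483%) in males, and DESeq2 called 167. Of all genes, 9.72% had an unadjusted p under 0.05, as did 1 of the 7. The groups overlapped for all 7 genes, as they did for all but 0.125% of genes tested.

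In males *Slc12a5* ran from 447 to 660 CPM (median 541), a span that took in all 12 females, which lay between 495 and 615 CPM (median 577). The log2 difference of males minus females was -0.059 (-0.22 to 0.098, adjusted p = 0.813 with edgeR). *Slc12a2* ran from 173 to 278 CPM in males (median 209) and from 196 to 288 CPM in females (median 237). The 2 lowest samples of the series for *Slc12a2*, at 173 and 181 CPM, and those for *Slc12a5*, at 447 and 453 CPM, were males of replicates 5 and 6. The log2 difference of *Slc12a2* was -0.15 (-0.35 to 0.057, adjusted p = 0.627). *Clcn2* reached 81.3 CPM in male 4, the highest value of the series, but the other males lay between 55.4 and 71.6 CPM, and the log2 difference was 0.083 (-0.060 to 0.23, adjusted p = 0.702).

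*Wnk1* had the smallest p of the 7 genes between the sexes. It ran from 56.4 to 76.1 CPM in males (median 62.9) and from 59.3 to 78.4 CPM in females (median 71.8), with means of 64.6 ± 7.78 (SD, n = 6) and 71.1 ± 5.10 CPM (SD, n = 12). The log2 difference was -0.14 (-0.27 to -0.0051), the only interval of the 7 that did not reach 0, and the adjusted p was 0.502 (edgeR). *Stk39* ran from 99.6 to 119 CPM in males (median 112) and from 104 to 125 CPM in females (median 117), and its log2 difference of -0.090 (-0.18 to 0.0041) did not pass (adjusted p = 0.523, edgeR).

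*Car2* ran from 359 to 519 CPM in males (median 438) and from 409 to 542 CPM in females (median 465), with a log2 difference of -0.12 (-0.27 to 0.035, adjusted p = 0.602). *Car7* ran from 15.1 to 18.2 CPM in males (median 16.4) and from 12.3 to 18.5 CPM in females (median 16.9), with a log2 difference of -0.033 (-0.18 to 0.11, adjusted p = 0.897). The intervals of the 7 genes lay between 0.782-fold and 1.17-fold of the level in females. The median log2 difference of the 7 genes was -0.090, beside -0.0013 over all genes tested.

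Within replicates 1 to 3, 0 of the 7 genes had an unadjusted p under 0.05 between the sexes, beside 8.12% of all genes. Within replicates 4 to 6, 4 of the 7 had one, beside 11.7% of all genes, while none of the 7 passed after adjustment in either set. In replicates 4 to 6 the log2 difference of males minus females was -0.17 for *Slc12a5*, -0.27 for *Slc12a2*, -0.23 for *Wnk1* and -0.15 for *Stk39*, with adjusted p-values of 0.358, 0.259, 0.309 and 0.417 (edgeR). In replicates 1 to 3 these were 0.022, -0.060, -0.061 and -0.038. For *Slc12a5* the log2 sex difference in the second set minus that in the first was -0.21 ± 0.0744 (SE), with an adjusted p of 0.964 for this interaction (edgeR). It called 0 of 24862 genes, 1235 (4.97%) having an unadjusted p under 0.05, and DESeq2 called 11, with none of the 7 genes among them. In the bulk tissue, fewer cells of a type and less RNA per cell cannot be told apart. The higher Schwann cell markers of males, of which 1 of 6 passed, stand beside these values. So do the summed inhibitory neuron markers of males 4 to 6, at 720, 669 and 637 CPM, against 720 to 810 CPM in females 4 to 6. Males 1 to 3 had 787 to 855 CPM, against 780 to 887 CPM in females 1 to 3. Of the inhibitory markers 0 of 6 passed between the sexes, with a median log2 difference of -0.0083. All 6 motor neuron markers were lower in males, at log2 differences of -0.83 to -0.38, and 0 passed. Their sums were 22.9 to 166 CPM in males and 33.0 to 322 CPM in females. Males 5 and 6 had 22.9 and 62.0 CPM. Excitatory dorsal horn neuron markers had log2 differences of -0.044 to 0.27, and 0 of 6 passed. The part of cell content in these values was not tested.

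**Figure D3:**
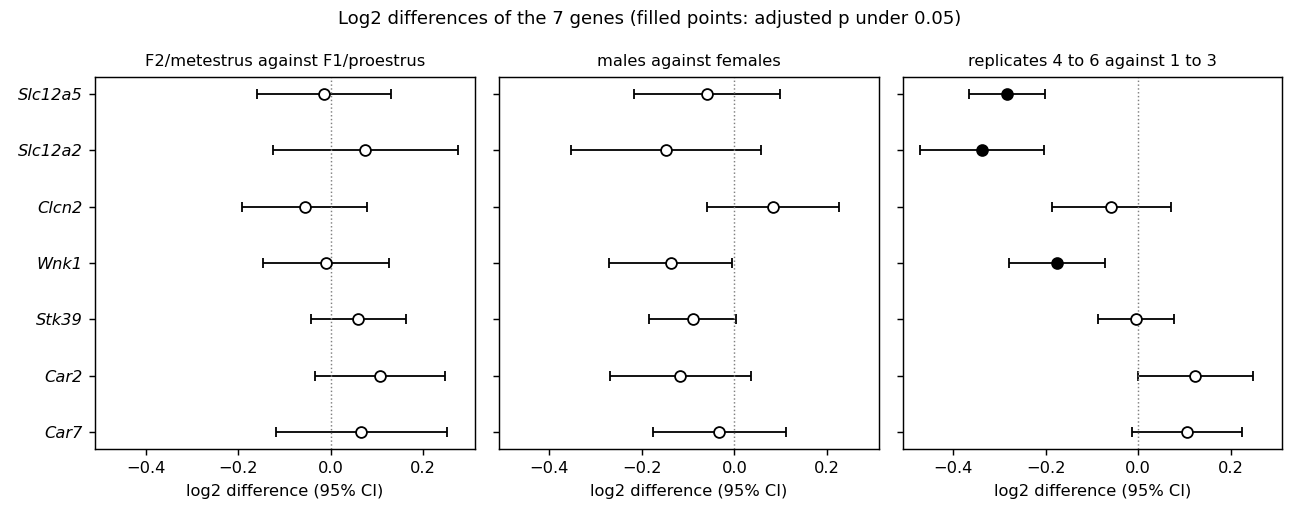
Log2 differences (x axis) of the 7 genes (y axis) in F2/metestrus against F1/proestrus, males against females and replicates 4 to 6 against 1 to 3. Bars are 95% confidence intervals, and filled points have an adjusted p under 0.05: none in the first pair of panels, and *Slc12a5*, *Slc12a2* and *Wnk1*, all lower, in the last.

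The largest log2 differences among these genes, those of *Slc12a5*, *Slc12a2* and *Wnk1*, lay between the replicate sets, which each hold 3 samples of each group. *Clcn2* and *Stk39* differed more between the sexes. With the group in the model, replicates 4 to 6 had lower levels of *Slc12a5*, *Slc12a2* and *Wnk1*. These 3 of 7 genes stand against 6637 of 24038 genes called in all (27.6%), 2981 of them higher (12.4%) and 3656 lower (15.2%). Unadjusted p was under 0.05 in 3 of the 7 and in 38.2% of all genes. *Slc12a5* ran from 580 to 660 CPM in replicates 1 to 3 (median 608) and from 447 to 574 CPM in replicates 4 to 6 (median 500), with no overlap, which held for 4.22% of all genes. Its means were 607 ± 23.4 and 507 ± 41.0 CPM (SD, n = 9 each), a log2 difference of -0.28 ± 0.0393 (SE, adjusted p = 2.79e-05, edgeR). KCC2 transcripts were thus 0.822-fold as abundant in the second set.

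*Slc12a2* ran from 220 to 288 CPM in the first set (median 267) and from 173 to 240 CPM in the second (median 210). The sets overlapped between 220 and 240 CPM, and the log2 difference was -0.34 ± 0.0640 (SE, adjusted p = 0.000568, edgeR). *Wnk1* ran from 65.5 to 78.4 CPM (median 74.0) and from 56.4 to 73.5 CPM (median 67.0), with a log2 difference of -0.18 ± 0.0497 (SE, adjusted p = 0.0120, edgeR). In males alone, *Slc12a5* and *Slc12a2* passed, at -0.41 (adjusted p = 0.0172) and -0.47 (adjusted p = 0.0234), and *Wnk1* did not, at -0.28 (adjusted p = 0.0681). None of the 7 passed in F1/proestrus alone or F2/metestrus alone, where *Slc12a5* had -0.15 and -0.23, *Slc12a2* -0.26 and -0.22, and *Wnk1* -0.11 and -0.075. Without F1/proestrus 5 the 3 genes still passed, *Slc12a5* at -0.26.

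The other 4 genes did not pass. *Car2* had 433 ± 32.3 CPM in replicates 1 to 3 and 478 ± 56.4 CPM in replicates 4 to 6 (SD, n = 9 each), with a log2 difference of 0.12 (-0.00036 to 0.25, adjusted p = 0.132, edgeR). It passed without male 1 (0.17, adjusted p = 0.0434) or without male 4 (0.17, adjusted p = 0.0121). *Car7* had a log2 difference of 0.11 (adjusted p = 0.181, edgeR), and without F1/proestrus 3 it passed, at 0.16 (adjusted p = 0.0326). *Clcn2* had -0.058 (adjusted p = 0.531) and *Stk39* -0.0045 (adjusted p = 0.950). The median log2 difference of the 7 genes was -0.058, beside -0.015 over all genes tested.

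Annotated exon length moved with the difference between the sets. With all genes tested in 5 equal bins of exon length, from short to long, 7.84%, 6.26%, 5.72%, 13.9% and 42.3% of each bin were called lower in replicates 4 to 6. *Slc12a5*, *Slc12a2* and *Wnk1* were the 3 of the 7 genes in the bin of longest exons, whose median log2 difference was -0.14, and the 4 genes that did not pass were in other bins. Markers of cell types were called as well, beside the 15.2% of all genes that were lower and the 12.4% that were higher. Of 6 inhibitory neuron markers 1 was lower in the second set, a share close to that of all genes. This was the glycine transporter gene *Slc6a5* (log2 difference of -0.45). The summed level of the 6 was 780 to 887 CPM in the first set and 637 to 810 CPM in the second. Of 4 markers of oligodendrocyte precursors 3 were lower and 1 higher, with sums of 167 to 185 CPM and 128 to 170 CPM. Of 6 general neuronal markers 2 were higher and 0 lower, with sums of 4292 to 5091 CPM and 4600 to 5251 CPM. Also higher were 3 of 6 markers of excitatory dorsal horn neurons, 2 of 8 of oligodendrocytes, 3 of 6 of microglia and 1 of 6 of Schwann cells. Also lower were 2 of 6 markers of endothelium, 1 of 6 of microglia, 1 of 6 of astrocytes and 1 of 4 tested of choroid plexus. None passed in the lists of motor neurons, ependyma, meningeal fibroblasts, red blood cells, neutrophils and sensory ganglion neurons. The part of exon length or of cell content in the lower levels of *Slc12a5*, *Slc12a2* and *Wnk1* was not tested.

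**Figure D4:**
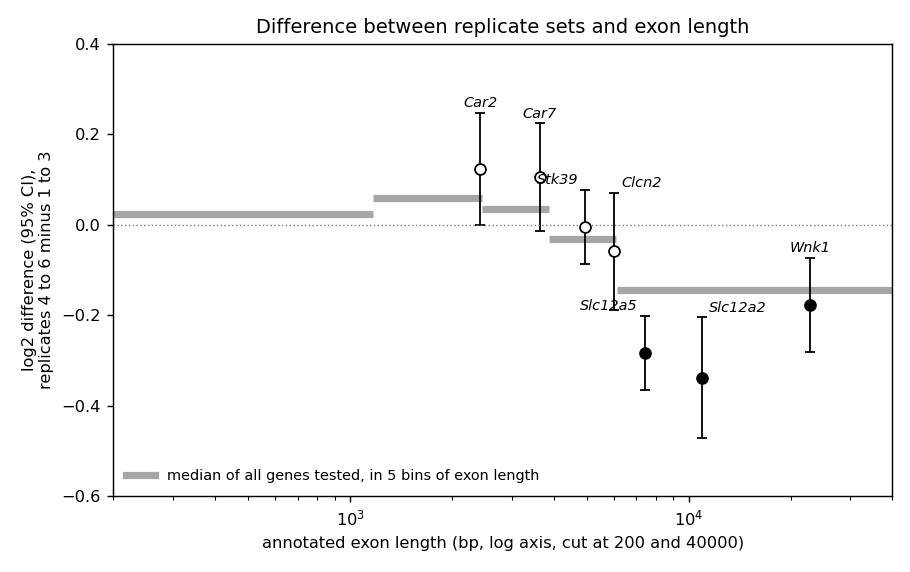
Log2 difference of replicates 4 to 6 minus 1 to 3 (y axis, bars are 95% confidence intervals) against annotated exon length in bp (x axis, log scale) for the 7 genes. Filled points have an adjusted p under 0.05, and grey lines give the median of all genes tested in each of 5 bins of length, which is -0.14 in the longest bin, where the 3 filled points lie.

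Other genes of the same pathways were examined as lists. Between the female groups and between the sexes, 0 genes of the 7 lists passed in either direction. These comparisons called 0% and 0.197% of all genes tested. Of the cotransporters, *Slc12a3* had the smallest p between the female groups (log2 difference of -0.53, at a low level given below). Of their kinases, *Wnk2* had the smallest p (-0.12). Between the sexes the smallest p belonged to *Slc12a4* (0.082) and *Wnk2* (0.099). For chloride channels and exchangers of the CLC family and their subunits it was *Ostm1* (0.081) between the female groups and *Clcn5* (-0.17) between the sexes, and for other chloride channels *Cftr* (-0.58) and *Lrrc8e* (0.73), with mean levels of 0.684 and 0.342 CPM. The carbonic anhydrases with the smallest p were *Car5b* (0.22) and *Car4* (-0.15), and the bicarbonate transporters *Slc4a11* (-0.82) and *Slc4a5* (-0.26). *Bdnf*, whose protein is known to lower KCC2 in the dorsal horn after nerve injury, had the smallest p among the regulators and partners of KCC2 in both comparisons, at -0.19 in F2/metestrus against F1/proestrus (adjusted p = 1) and 0.23 in males against females (adjusted p = 0.433, edgeR).

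Between the replicate sets, 15.2% of all genes were lower and 12.4% higher, with 42.3% lower in the bin of longest exons, and the counts of the lists stand beside these shares. There, 3 of 11 further genes of the WNK-SPAK pathway were lower, namely the kinase genes *Wnk3* (-0.71) and *Oxsr1* (-0.18), which encodes the relative of SPAK called OSR1, and the ubiquitin ligase adaptor gene *Klhl3* (-0.28), and 0 were higher. Of 9 tested genes of the CLC family and its subunits 2 were lower, *Clcn5* (-0.38) and *Clcn6* (-0.33), and 0 higher. Of 12 tested carbonic anhydrases 2 were higher, the mitochondrial *Car5a* (0.40) and *Car5b* (0.34), and 0 lower, a count close to the share of all genes. Medians of the log2 differences were -0.084, -0.082 and 0.097 for these 3 lists.

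Among bicarbonate transporters 3 of 12 were lower in the second set and 0 higher: *Slc4a4* (437 and 330 CPM, -0.43), *Slc4a7* (-0.35) and *Slc4a10* (-0.29). All 3 lie in the bin of longest exons, where 42.3% of genes were lower. Of 11 other chloride channel genes 2 were lower, *Lrrc8b* (-0.25) and *Lrrc8c* (-0.26), and 1 was higher, *Lrrc8a* (0.38), all subunits of the volume-regulated anion channel, counts again close to the shares of all genes. The 7 regulators and partners of KCC2 all lie in the bin of longest exons, where 42.3% of genes were lower and 3.20% higher. Of these 7, 5 were lower and 1 higher, the 4 of smallest p being *Ntrk2*, the receptor of BDNF (-0.18), *Epb41l1* (-0.21), *Arhgef7* (-0.14) and *Grik2* (-0.22). The fifth was *Neto2* (-0.29), an auxiliary subunit of KCC2, and *Bdnf* was the gene that was higher (0.21, adjusted p = 0.0234, edgeR). *Neto2* and the *Bdnf* value between the sets were named after they had been seen.

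Within their lists, KCC2 and NKCC1 had the highest levels per kb of the cotransporters. *Slc12a4* was at 13.6 ± 1.13 and *Slc12a9* at 6.49 ± 0.753 CPM per kb (SD, n = 18). *Slc12a1* and *Slc12a3*, the cotransporters of the kidney tubule, were at 0.0201 and 0.0277 CPM per kb. *Stk39* exceeded its relative *Oxsr1* (9.07 CPM per kb), while *Wnk1* lay below *Wnk2* (6.68 CPM per kb) and above *Wnk3* (2.48) and *Wnk4* (1.46). The exon lengths divided by were 22825 bp for *Wnk1* and 8481 bp for *Wnk2*, and the order depends on them. *Car2* led the carbonic anhydrases, followed by *Car14* (36.3 CPM per kb), which faces the outside of the cell, and by *Car11* and *Car10* (21.5 and 17.2 CPM per kb), which encode relatives without enzyme activity. *Car7* lay between *Car4* (10.1 CPM per kb) and *Car8* (2.01). Of the CLC genes, *Clcn4* (31.8 CPM per kb), *Clcn6* (21.2), *Clcn7* (15.5) and *Clcn3* (13.8), exchangers of inner membranes, lay above the channel gene *Clcn2*, and the muscle channel gene *Clcn1* was at 0.226 CPM per kb.

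**Figure D5:**
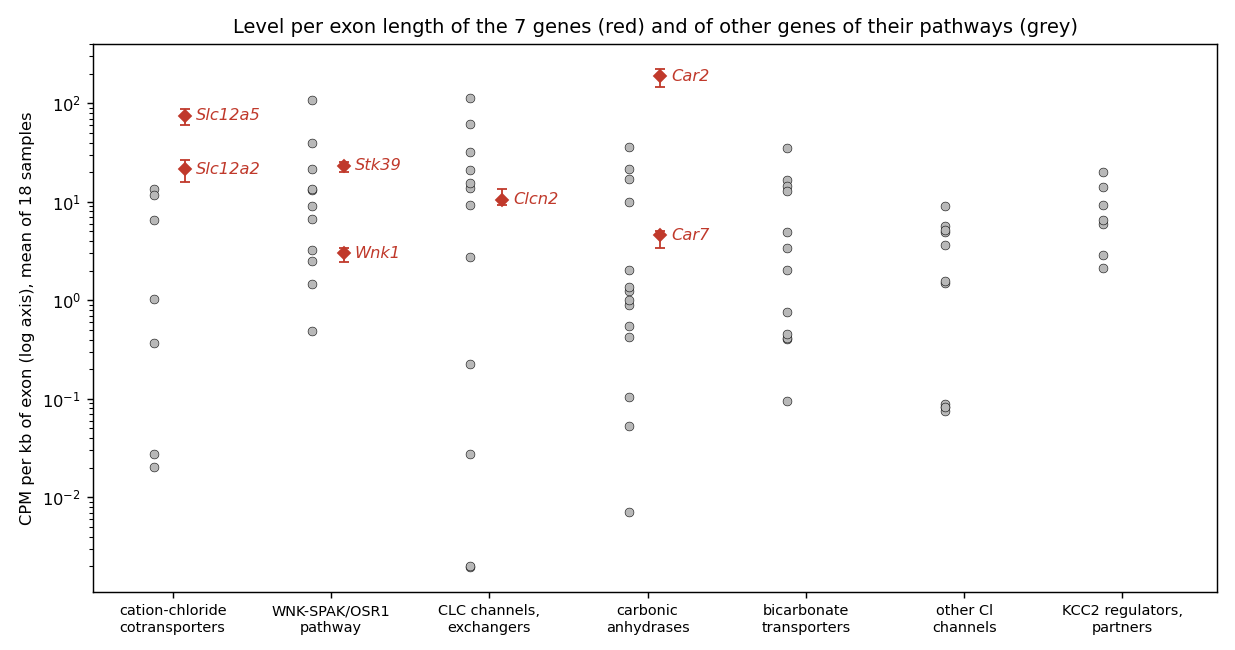
Levels in CPM per kb of exon (y axis, log scale, mean of 18 samples) by pathway list (x axis). Red diamonds are the 7 genes, with bars from the lowest to the highest sample, and grey points are other genes of each list. *Car2* and *Slc12a5* lie at the top of their lists.

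Relations between the 7 genes over the 18 samples were tested for 21 pairs, on log2 CPM with a permutation test. The permutations exchanged all 18 samples without regard to the replicate sets, between which *Slc12a5*, *Slc12a2* and *Wnk1* differed. These p-values therefore cannot tell a shared difference between the sets from variation shared between samples within a set. After adjustment 4 pairs passed by Pearson's r and 0 by Spearman's rho. Those with a positive r were *Slc12a2* and *Wnk1* (r = 0.74, adjusted permutation p = 0.0107, rho = 0.61), *Slc12a5* and *Slc12a2* (r = 0.67, adjusted permutation p = 0.0169, rho = 0.57) and *Slc12a5* and *Wnk1* (r = 0.60, adjusted permutation p = 0.0477, rho = 0.41). *Car2* and *Clcn2* had a negative one (r = -0.68, adjusted permutation p = 0.0169, rho = -0.56). Adjusted p-values of rho were 0.0907 for 3 of these pairs and 0.229 for *Slc12a5* and *Wnk1*. Without the 2 samples farthest from the median of the first gene, r was 0.60, 0.43, 0.33 and -0.36 in the order given.

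None of the 21 pairs passed within either replicate set in the exact permutation test (n = 9 each). *Slc12a5* and *Slc12a2* had r = -0.57 within replicates 1 to 3 and r = 0.50 within replicates 4 to 6. *Slc12a5* and *Wnk1* had -0.78 and 0.58, also opposite in sign. *Slc12a2* and *Wnk1* had 0.17 and 0.83, and *Car2* and *Clcn2* had -0.57 and -0.73, the same sign in both sets.

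Genes whose levels moved most like each of the 7 were found among 17762 genes, by Pearson's r over the 18 samples after the mean of each group and set was taken out. For *Slc12a5* these were *Gm26751* (r = 0.89) and *4831440D22Rik* (0.89), and for *Slc12a2* *Rnf24* (0.96) and *Arfgef1* (0.95). The kinase gene *Wnk1* had the lowest values, with *Cplx1* (0.85) and *Lsm12* (0.84), and *Stk39* was closest to *Cpt2* (0.92) and *Zmynd12* (0.91). *Clcn2* was closest to *Ankzf1* (0.97) and *Akap8l* (0.96), *Car2* to *Tcerg1l* (0.94) and *Frmd8* (0.93), and *Car7* to *Nectin4* (0.93) and *Wdr70* (0.90). Without taking out these means, r was -0.15 for *Wnk1* and *Cplx1* and 0.47 for *Car2* and *Tcerg1l*, and 0.59 to 0.95 for the other pairs. None of the 14 genes is a member of the chloride lists, and these values are a description, since the highest of 17762 values is given each time.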

How the data were processed

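The authors deposited raw counts of reads on the exons of 55573 Ensembl genes for the 18 samples, without normalization. Per the methods and the labels, reads were mapped uniquely to mm10 with Subread and counted with featureCounts. The labels give Subread 2.0.3, the methods an older version. The labels describe SMART-Seq amplification of poly(A) RNA and Nextera tagmentation, the methods a TruSeq kit. Whether strand was used in counting is not given in the sources used here. Reads on the 1.41% and 1.36% of *Clcn2* exon sequence that overlap its antisense neighbors can therefore not be told apart. A second deposited table, of the authors' DESeq2 comparison, was used for gene symbols alone. Its mean signal, log2 fold changes, standard errors, Wald scores, p-values and adjusted p-values, as deposited by the authors, were not used.

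Genes passing filterByExpr (minimum count of 10, minimum total of 15) were tested with the quasi-likelihood test of edgeR 4.0.16 in R 4.3.3, after TMM normalization, with Benjamini-Hochberg adjustment over all genes tested and an FDR of 5%. F2/metestrus and F1/proestrus were compared in the 12 females, the sexes in all 18 samples, and the replicate sets in all 18 with the group as covariate. The sex by set interaction was fitted in all 18. The standard error is the log2 difference divided by the square root of F. DESeq2 1.42.0, limma voom 3.58.1 with sample quality weights and other settings were alternatives. The scripts were tested on simulated data. Levels are CPM, also per kb of the union of exons (GENCODE vM21, which held 55480 of the 55573 identifiers). Relations were tested with 100000 permutations, or all 362880 within a set. p-values measure the spread between samples, since the labels do not name the animals. No samples differed by less than sampling noise. Intervals and the floor of 3 counts cover counting error or sample spread only.

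The 7 genes, the pathway and marker lists and the tests were chosen with earlier results of these data known. The genes named are the 7, the genes of each pathway list past the threshold (up to 4 of smallest p) or else the 1 of smallest p, and the 2 genes most like each of the 7. The levels of other genes per kb and the split by exon length were added after seeing the data. Amino acid sequences were not used here. The list of other cation-chloride cotransporters is not reported here between the replicate sets.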

Additional observations from a re-analysis of the deposited data

How the results depend on the processing

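Between the female groups and between the sexes, 0 of the 7 genes passed under all alternatives tried and with each sample left out. *Slc12a5*, *Slc12a2* and *Wnk1* were lower in replicates 4 to 6 under all of them. *Slc12a5* and *Slc12a2* passed except in F1/proestrus alone and F2/metestrus alone, and *Wnk1* except in each group alone. Over the female comparison, DESeq2 called 2 genes. There *Slc12a5* changed sign with voom (0.0073) and in replicates 1 to 3 (0.017), and ran from -0.050 to 0.019 with a sample left out. *Wnk1* changed sign in replicates 4 to 6 (0.012), with -0.057 to 0.016 on leaving out samples, and *Car7* ran from -0.0027 to 0.10. Between the sexes, the 49 genes called became 167 with DESeq2, 31 with at least 10 counts in every sample, 134 with the replicate set as covariate, 16 in replicates 1 to 3, 13 in replicates 4 to 6, 13 against F1/proestrus and 22 against F2/metestrus. Leaving out samples gave 25 (without male 5) to 77 (without F1/proestrus 5), with 30 without male 4. *Slc12a5* was 0.022 in replicates 1 to 3. Between the replicate sets, 5832 to 6913 genes and 3 to 4 of the 7 passed with a sample left out, 1198 genes in males, 77 genes and 0 of the 7 in F1/proestrus, and 781 genes and 0 of the 7 in F2/metestrus. *Stk39* changed sign with DESeq2 (0.019), size factors (0.016), no filter (0.0023), 10 counts in every sample (0.0075), F1/proestrus (0.093) and F2/metestrus (0.026), and ran from -0.020 to 0.038 with samples left out. *Clcn2* was 0.0057 in males. The cause of these changes was not tested, but single groups and sets hold fewer samples.

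The replicate numbers were tried as a block. Profiles with the same number correlated at -0.10 to 0.23 (median 0.082), over 0.1 in 9 of 18 pairs. Other numbers of the same set gave 18 of 36 (median 0.098), and with the set means taken out 1 of the 18 exceeded 0.1. Since not every pair did, the numbers were not taken to pair the samples. With the replicate block 0 genes passed between the female groups and 148 between the sexes, 0 of the 7 in each. At these depths, counting error was small beside the spread between 6 samples a group, which limits the intervals given. That spread includes the difference between the replicate sets, which the main fits of the female groups and the sexes did not model. For *Slc12a5* in males the SD was 16.3% of the mean over 6 samples, and 6.26% and 6.08% within the first and second set.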
